A study of Canis lupus familiaris with 10 samples.

Results

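RTN4RL1, CLVS2, LSAMP and MBP are genes best known from neurons and glia, and their transcripts were followed here in canine visceral adipose tissue (VAT). These 4 genes were taken by name from the gene list of the study, which gives the Ensembl identifiers found in the count tables (ENSCAFG00000028579 for RTN4RL1, ENSCAFG00000001006 for CLVS2, ENSCAFG00000010858 for LSAMP and ENSCAFG00000000016 for MBP). They are 4 of 19856 genes in the tables, and all 4 had at least 10 reads in at least 1 sample, as had 13577 genes in all. LSAMP met that filter only through Pre-ACTH samples. The genes were chosen because the study lists them as changed between the same groups, so their changes are given below as a description and without a test.

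The samples came from 5 adult Beagle dogs (3 males, 2 females) whose VAT was taken by laparotomy at 2 times. Pre-ACTH samples preceded the treatment, and Post-ACTH samples followed 25 weeks of continuous tetracosactide, a synthetic ACTH analog that drives the adrenal glands to release cortisol. Osmotic pumps under the skin, renewed every 4 weeks, delivered the agent, and by the end the daily amount had been raised to 6 to 10 μg/kg. The dogs are numbered 1 to 5 by animal ID, with dogs 2 and 3 being the females, and each dog served as its own control, so the 25 weeks that passed and the treatment cannot be told apart. RNA-seq libraries of the 10 samples held 8728330 to 14867529 counted reads, and the smallest was the Pre-ACTH library of dog 3.

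RTN4RL1 (reticulon 4 receptor like 1) belongs to the Nogo receptor family, surface proteins with leucine-rich repeats that sit on neurons through a lipid anchor and take part in limiting axon growth. CLVS2 (clavesin 2) is a lipid-binding protein of the SEC14 family found on clathrin-coated vesicles of neurons, where it acts in the shaping of late endosomes and lysosomes. LSAMP (limbic system-associated membrane protein) is an adhesion molecule of the IgLON family that guides neurite growth. MBP (myelin basic protein) compacts the myelin sheath made by oligodendrocytes and Schwann cells, and the same gene also gives rise to longer transcripts that are found in immune cells. Fat depots are reached by sympathetic and sensory nerve fibers with their Schwann cells, while the cell bodies of these neurons lie outside the tissue. In RNA from whole tissue, fewer cells of a type and less RNA per cell cannot be told apart.

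The 4 genes did not move as a group. Normalized counts of RTN4RL1 and CLVS2 were higher in Post-ACTH in all 5 dogs, while those of LSAMP and MBP were lower in all 5 dogs. Normalized counts are reads divided by the library size after TMM scaling (a factor that sets libraries to a common scale) and multiplied by the mean library size. For 3 of the 4 genes (RTN4RL1, CLVS2 and LSAMP) the Pre-ACTH and Post-ACTH values did not overlap, which was the case for 9.04% of all tested genes, and a log2 ratio of the same sign in all 5 dogs was found for 26.9% of them. As the genes were picked by this contrast, nothing follows from either share. The plot of normalized counts by dog shows the values of each gene.

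**Figure D1:**
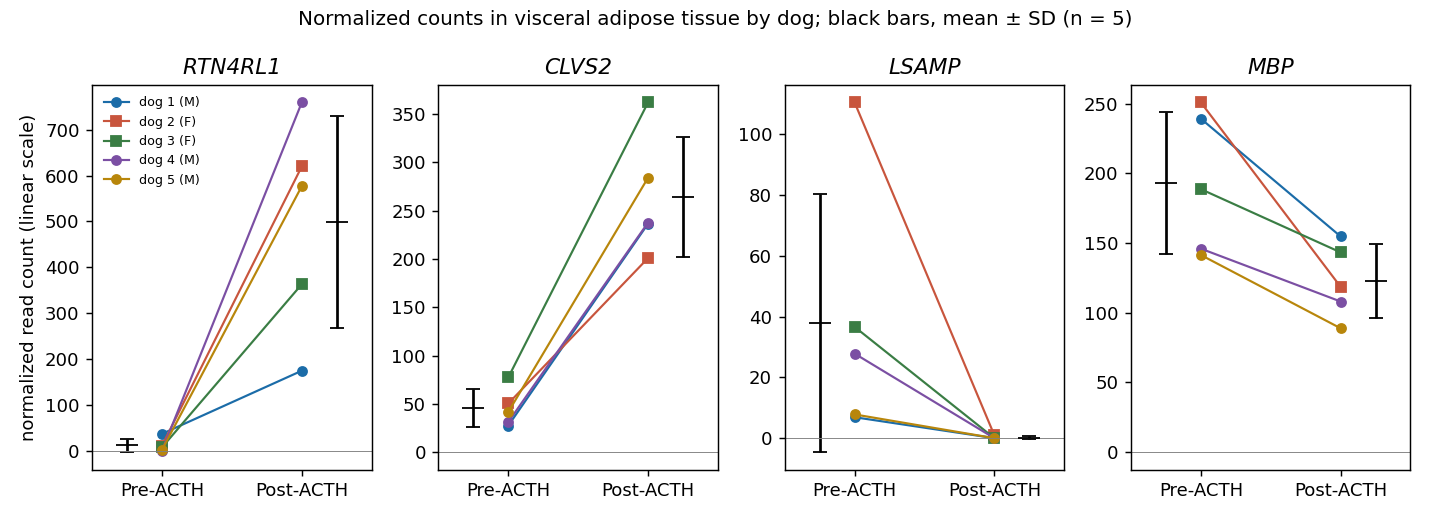
Normalized read counts (vertical axes, linear, a separate scale per gene) of RTN4RL1, CLVS2, LSAMP and MBP in Pre-ACTH and Post-ACTH samples, with a line for each dog (circles, males; squares, females) and the mean ± SD of the 5 dogs in black. RTN4RL1 and CLVS2 rise along every line, LSAMP ends at 0 or close to it in Post-ACTH, and the 2 groups overlap only for MBP.

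RTN4RL1 had few reads before treatment, most of them in dog 1. In Pre-ACTH it had 37, 11, 5, 0 and 2 reads in dogs 1 to 5, and in Post-ACTH 162, 648, 410, 815 and 597 reads. In normalized counts these were 36.4, 10.7, 7.04, 0 and 1.74 before and 174, 620, 363, 759 and 577 after treatment. Thus the lowest Post-ACTH value was above the highest Pre-ACTH value, and both belonged to dog 1. The group means were 11.2 ± 14.7 and 499 ± 231 normalized counts (SD, n = 5 each), a ratio of 44.6.

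The size of the RTN4RL1 rise differed widely between dogs. In dog 1 the normalized count rose 4.78-fold, in dogs 2 and 3 it rose 58.2-fold and 51.5-fold, and in dog 5, which started from 2 reads, 332-fold. Dog 4 had no Pre-ACTH read, and with 3 reads taken as the limit that a count of 0 allows, its Post-ACTH value was at least 218-fold higher. On the log2 scale, with a prior count of 2 added to the reads, the ratios averaged 5.80 ± 2.40 (SD, n = 5 dogs). The ratios of dogs 4 and 5, with 0 and 2 Pre-ACTH reads, depend on that prior count. They were 8.57 and 7.27 with 2, and 10.6 and 8.01 with a prior count of 0.5, where the mean was 6.44. Dog 1 carried much of the spread between dogs. When it was left out the Pre-ACTH mean fell to 4.86 ± 4.89 (SD, n = 4), the Post-ACTH mean was 580 ± 164, and the ratio of the means went from 44.6 to 119.

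Among the 13577 tested genes only 4 had a larger positive log2 fold change than RTN4RL1, which reached 5.40 in the edgeR model with the dog as a block.

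Of the genes that rose, CLVS2 was the more even. It had 28, 52, 55, 27 and 48 reads in Pre-ACTH and 220, 210, 409, 255 and 294 reads in Post-ACTH for dogs 1 to 5. After normalization the Pre-ACTH values were 27.6, 50.4, 77.5, 31.3 and 41.7, and the Post-ACTH values 236, 201, 362, 238 and 284. Every library thus held more than 20 reads of this gene, and the lowest Post-ACTH value, that of dog 2, was well above the highest Pre-ACTH value, that of dog 3. The means were 45.7 ± 19.9 and 264 ± 62.1 normalized counts (SD, n = 5 each), a ratio of 5.78.

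Within dogs, CLVS2 rose between 3.99-fold in dog 2 and 8.58-fold in dog 1. The log2 ratios had a mean of 2.54 ± 0.45 (SD, n = 5), and the log2 fold change of the fit, 2.58, was exceeded by 36 genes. Leaving out any single dog kept it between 2.46 and 2.73. The dog with the smallest rise of RTN4RL1 (dog 1) therefore had the largest rise of CLVS2, which shows that the 2 genes did not share one order of dogs. Dog 3 had the highest CLVS2 count both before and after treatment.

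**Figure D2:**
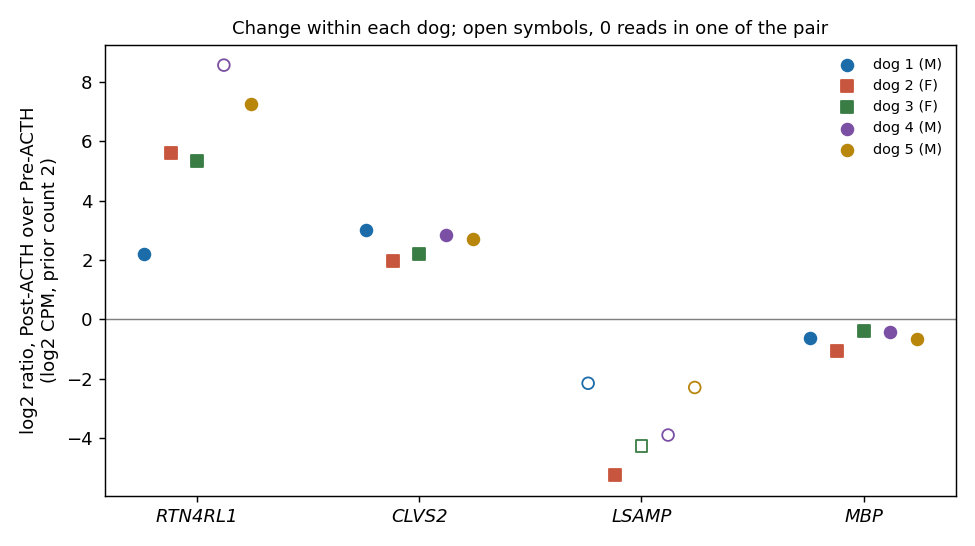
Log2 ratio of Post-ACTH over Pre-ACTH (vertical axis, log2 CPM with a prior count of 2) for each dog and gene, with circles for males, squares for females and open symbols where one library of the pair had 0 reads. Ratios of CLVS2 lie between 1.95 and 3.01 and those of RTN4RL1 between 2.20 and 8.57, and all ratios of LSAMP and MBP are below 0. The highest RTN4RL1 ratio, that of dog 4, rests on 0 Pre-ACTH reads and depends on the prior count.

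LSAMP was detected at a low level before treatment and almost not at all afterwards. Its reads in Pre-ACTH were 7, 114, 26, 24 and 9 in dogs 1 to 5. In Post-ACTH they were 0, 1, 0, 0 and 0. Only 3 of the 10 libraries therefore reached 10 reads. The normalized counts in Pre-ACTH were 6.89, 110, 36.6, 27.8 and 7.81, with a mean of 37.9 ± 42.5 (SD, n = 5), and the mean in Post-ACTH was 0.191 ± 0.428.

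A single dog supplied most of the LSAMP signal. Dog 2 held 58.3% of the summed Pre-ACTH normalized counts, 3.02 times the next highest value. Without dog 2 the Pre-ACTH mean was 19.8 ± 14.8 (SD, n = 4) and the other Post-ACTH libraries held no read.

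The reads of LSAMP bound the size of its fall only loosely. Taken over all dogs there were 180 reads in Pre-ACTH and 1 read in Post-ACTH, so that 0.509% of the depth-corrected Pre-ACTH level was left, with an exact 95% binomial interval of 0.0128% to 2.87%. That interval covers counting error only and not the difference between dogs. Bounds per dog used the same limit of 3 reads per library and took the Pre-ACTH reads as exact. The Post-ACTH value was then at least 13.8-fold lower in dog 3 and 9.95-fold lower in dog 4. With 3.69 reads, the end of the exact 95% Poisson interval for 0 reads, both bounds would be lower. In dogs 1 and 5 the 7 and 9 Pre-ACTH reads have exact 95% Poisson intervals that start at 2.81 and 4.12 reads. These starts lie close to the limit of 3 reads, and no fold is given for dogs 1 and 5. In dog 2 the ratio of the 2 samples was 115, resting on a single Post-ACTH read.

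Fitted fold changes of LSAMP depend on the number added to the counts. The edgeR model gave -6.95, the second lowest of all tested genes, since 1 gene had a lower value, whereas the mean log2 ratio of the 5 dogs was -3.57 ± 1.33 (SD, n = 5) with a prior count of 2 and -5.24 with a prior count of 0.5. These values describe the fit and are no bound on the fall.

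MBP changed least. It had 243, 259, 134, 126 and 163 reads in Pre-ACTH and 144, 124, 162, 116 and 92 reads in Post-ACTH. Dog 3 had more reads after treatment than before, its Pre-ACTH library being the smallest of the series. On the normalized scale the Pre-ACTH values were 239, 251, 189, 146 and 141, and the Post-ACTH values 155, 119, 143, 108 and 88.9.

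Every dog thus ended lower than it began, but the groups overlapped, since dogs 1 and 3 after treatment were at or above the level that dog 5 had before it. The means were 193 ± 50.9 and 123 ± 26.6 (SD, n = 5 each), a ratio of 0.635. The largest fall was that of dog 2, to 0.473 of its Pre-ACTH value, and the smallest that of dog 3, to 0.760. The log2 ratios averaged -0.63 ± 0.27 (SD, n = 5), and 1546 tested genes had a lower fitted log2 fold change than the -0.64 of MBP. The median absolute log2 fold change over all tested genes was 0.21.

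The sex of the dogs played no part in the choice of the genes, so the difference in response between females and males could be tested. The test was edgeR's quasi-likelihood test of a sex-by-treatment term, with the dog as a block and Benjamini-Hochberg adjustment over 13577 genes at FDR under 0.01. It called 0 genes (0% of those tested), and DESeq2 called 5. Of the 13577 genes 435 had an unadjusted edgeR p under 0.05, a smaller share than the 0.05 that p-values without any effect would give. CLVS2 had mean log2 ratios of 2.86 ± 0.15 in males (SD, n = 3) and 2.07 ± 0.17 in females (SD, n = 2). The fitted difference, females minus males, was -0.81 (95% interval -1.39 to -0.23), with an unadjusted edgeR p of 0.0136, which did not hold after adjustment (adjusted p = 1).

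For RTN4RL1 the difference between the sexes was 0.57 (95% interval -4.08 to 5.22) and for MBP -0.16 (95% interval -0.83 to 0.50), both with an adjusted p of 1 in the same edgeR test. The sign of the RTN4RL1 term was opposite to that of the plain means of the dogs' ratios, and no direction is read from it. The dogs behind the wide interval of RTN4RL1 were the males, with a mean log2 ratio of 6.01 ± 3.37 (SD, n = 3), against 5.48 ± 0.20 (SD, n = 2) in the females. The fitted term was negative without dog 1, at -3.42 (adjusted p = 0.213), and with all dogs in DESeq2, at -1.91 (adjusted p = 1.00). That of MBP turned to 0.18 without dog 2 (adjusted p = 1 in edgeR). These intervals do not show that the sexes responded alike, and the single Post-ACTH read of LSAMP left its difference without meaning.

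Other genes of the same systems were followed from lists of the Nogo receptor pathway, lipid carriers of the SEC14 family, IgLON and other neural adhesion molecules, myelin and Schwann cell genes, neuron and axon genes, and neurotrophins with their receptors. These lists held 100 genes, of which only 10 could be matched to an identifier, since the symbols came from the gene list of the study. Those 10 were therefore also chosen by the study on these samples, and their directions are no independent evidence. Genes that were not matched are not named in that gene list, as not called changed there or for lack of a symbol. The values of the unmatched genes were not examined. The edgeR test of Post-ACTH against Pre-ACTH called 1 of the 10, which was higher, where 1.97% of all tested genes were called, 0.751% as higher and 1.22% as lower. Of the 10 fold changes 5 were positive and 5 negative, with a median of -0.01 on the log2 scale. The median of all tested genes was -0.00. As the 10 were chosen for a change, nothing follows from setting their share called or their median beside those of all tested genes.

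The called gene was NTRK3, the receptor of neurotrophin-3, which rose by 1.15 on the log2 scale with an SE of 0.14 (edgeR, adjusted p = 0.00548). Its mean was 601 ± 219 normalized counts in Pre-ACTH and 1325 ± 489 in Post-ACTH (SD, n = 5). All 5 dogs went up, with Pre-ACTH values from 341 to 791 (median 715) and Post-ACTH values from 870 to 1936 (median 1101), so the groups did not overlap. The call was lost without the dog as a block (adjusted p = 0.0389 in edgeR). It was also lost when dog 2, 4 or 5 was left out (adjusted p = 0.0313, 0.0155 and 0.0291 in edgeR). Over all genes the calls fell as well without these dogs, from 268 to 1, 117 and 23. NTRK2, the receptor of brain-derived neurotrophic factor, had an estimate of 0.51 with an SE of 0.08 (edgeR, adjusted p = 0.0113) and lay above its Pre-ACTH value in all 5 dogs. NTRK2 did not pass the threshold in the main test. It passed in edgeR when genes were kept from 1 read on (adjusted p = 0.00942). That it passed with DESeq2 largely restates how the study's list was made.

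In the Nogo receptor list only RTN3, a reticulon of the endoplasmic reticulum, was matched. Its mean was 4344 ± 203 normalized counts in Pre-ACTH and 6018 ± 776 in Post-ACTH (SD, n = 5). The difference of 0.46 on the log2 scale (SE 0.09) did not pass the threshold (adjusted p = 0.0189, edgeR). The receptors, co-receptors and ligands that act with the Nogo receptors were not analysed here. Among the lipid carriers, TTPA, which transports vitamin E, had means of 682 ± 546 and 1124 ± 218 normalized counts and an adjusted p of 0.0886 in edgeR, with dog 1 going against the other 4 dogs.

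The adhesion molecules split in direction, and 0 of 4 passed the threshold in edgeR (DESeq2 called 4, and 4 of 4 had an unadjusted edgeR p under 0.05, both of which largely restate how the study's list was made). CADM3, an adhesion molecule of axons, had an estimate of 1.04 (SE 0.17, edgeR, adjusted p = 0.0119), with normalized counts of 47.5 to 71.7 in Pre-ACTH and 95.6 to 147 in Post-ACTH. SDK1, an adhesion molecule of synapses, had -0.82 (SE 0.17, adjusted p = 0.0256) and was lower in all 5 dogs, as was NFASC, an organizer of the node of Ranvier, with means of 76.1 ± 26.4 and 37.0 ± 8.40 normalized counts (SD, n = 5, edgeR, adjusted p = 0.0234). CHL1, a neural adhesion molecule of the L1 family, had -1.18 (SE 0.35, adjusted p = 0.0679), but its Pre-ACTH values ran from 32.4 in dog 4 to 1191 in dog 3 and it was not lower in every dog. Only 4 of the 19 listed adhesion genes could be matched, and no other IgLON gene was among them. Whether the family of LSAMP shared its direction was therefore not examined.

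Beside MBP, MAL was the only gene of the myelin list that could be matched, a membrane protein of myelin that T cells and epithelia also make. Its means were 1704 ± 725 and 1216 ± 535 normalized counts (SD, n = 5) in overlapping groups, and its log2 difference of -0.48 had an SE of 0.10 (edgeR, adjusted p = 0.0285). RET, the receptor of the GDNF family of growth factors and the only gene matched from the neuron list, had -0.72 (SE 0.16, adjusted p = 0.0293). Both were lower in all 5 dogs and neither passed the threshold. The defining markers of Schwann cells and of peripheral axons, such as SOX10, TUBB3 and TH, were not analysed here, so the label neural is taken from what the genes are known for and not from cells shown in this tissue.

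**Figure D3:**
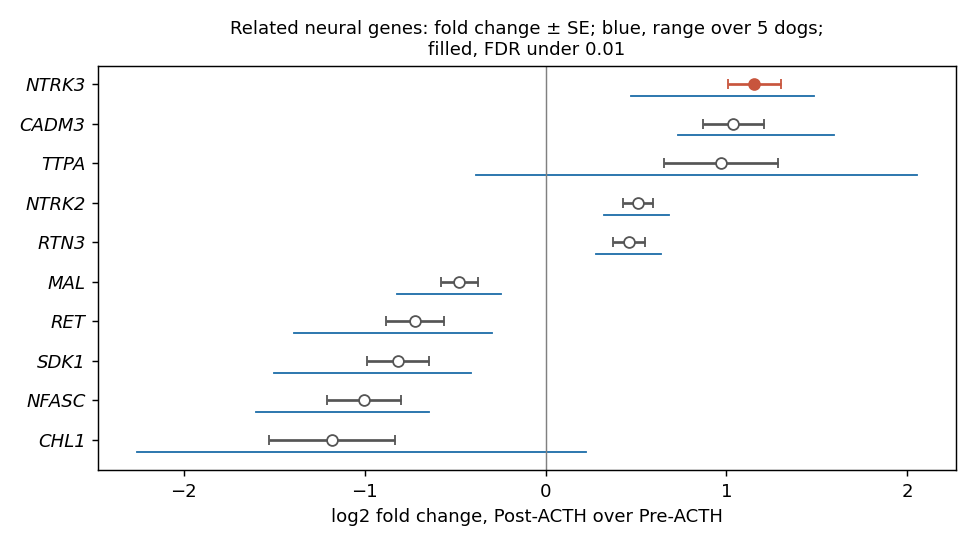
Log2 fold change of Post-ACTH over Pre-ACTH (horizontal axis) of the 10 matched genes of the neural lists, with points and bars for the estimate ± SE of edgeR and blue lines for the range of the 5 dogs. Estimates run from -1.18 for CHL1 to 1.15 for NTRK3, which is the only filled point (FDR under 0.01).

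Markers of other cell types could be matched only through the study's list of changed genes, so each matched marker was chosen for a change between these groups, and the values below are a description. Markers that were not matched are not named in that list, as not called changed there or for lack of a symbol. Their values were not examined, so the sums and directions below leave them out. Of 10 markers of fibroblasts and adipose progenitors 6 could be matched, all 6 had a negative fold change, and 3 were called lower (LUM, COL3A1 and PI16, edgeR, FDR under 0.01), where 1.22% of all tested genes were. Without dog 2 or dog 3 the count was 0, where only 1 and 12 of all tested genes were still called. The summed normalized count of the 6 matched markers was 15357 to 32410 in Pre-ACTH and 4853 to 8623 in Post-ACTH. As it holds only markers listed as changed, this sum is no measure of how common these cells were. In Pre-ACTH dogs 1 and 2 had the highest sums, 32410 and 25291, and were also the dogs with the highest MBP. For LSAMP dog 2 was the highest, while dog 1 (7 reads) and dog 5 (9 reads) were low and not told apart by their counts. The part of these cells in the fall of LSAMP and MBP was not tested.

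LIPE, the hormone-sensitive lipase and the only adipocyte marker of 10 that was matched, had 19596 to 25067 normalized counts in Pre-ACTH and 27688 to 33574 in Post-ACTH (log2 fold change 0.48, adjusted p = 0.0313, edgeR). Its part in the rise of RTN4RL1 and CLVS2 was not tested. As 1 marker of 10, named by the study for its change, LIPE was not taken as a measure of adipocytes. The matched macrophage markers (2 of 10) had sums of 855 to 1889 and 511 to 1253, but CSF1R had a log2 fold change of -0.75 and C1QB one of 1.00. The matched mural markers (3 of 8) had sums of 3067 to 3853 and 2242 to 2795, with -0.74 for PDGFRB, -0.67 for NOTCH3 and 0.89 for MYH11. Members of both lists thus had fold changes of opposite sign. The sums of the mast cell markers (2 of 7) were 16.5 to 42.2 and 0 to 3.22. For skeletal muscle 2 of 9 were matched, and they went in opposite directions, CKM up by 3.58 and TTN down with -2.07. None of the 10 mesothelial, 8 endothelial and 10 lymphocyte markers was matched.

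The genes whose profile over the 10 samples lay nearest to each of the 4 were sought among 1068 other named genes with a mean of at least 10 reads, by the root mean square difference of log2 CPM after centring each gene. For RTN4RL1 they were IGFBP2 (1.10 log2 units), IL1RL1 (1.35) and SPOCK1 (1.50). IGFBP2, a binding protein of insulin-like growth factors, shared with RTN4RL1 its largest ratio in dog 4, 9.47 on the log2 scale, but its smallest was in dog 3. IL1RL1, the receptor of IL33, had its smallest ratio in dog 1, as RTN4RL1 did.

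For CLVS2 the nearest profile was that of FIBIN (0.42), with means of 35.9 ± 12.6 and 217 ± 62.9 normalized counts and a log2 fold change of 2.57 beside the 2.58 of CLVS2. PRLR, the prolactin receptor, and C1orf162 followed at 0.57 and 0.60. LSAMP was nearest to SLC1A2, a glutamate transporter known from astrocytes (0.72), then DMGDH, a mitochondrial enzyme of choline breakdown (0.87), and CILP, a matrix protein of cartilage (0.89). In Post-ACTH, LSAMP had 1 read in dog 2 and 0 reads in the other dogs. The Post-ACTH part of its profile is thus set largely by the prior count of 2. Whether the same genes would be nearest with another prior count was not tested. SLC1A2 went from 36.6 ± 16.4 to 3.11 ± 1.36 normalized counts (SD, n = 5).

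The genes nearest to MBP were EPB41L2 at 0.13, DST at 0.15 and IFT43 at 0.17 log2 units. These distances are not scaled to a gene's own variation, which was small for MBP and large for RTN4RL1, so they rank genes around 1 gene and not between the 4. EPB41L2 and DST encode proteins of the cytoskeleton, and their log2 fold changes were -0.46 and -0.67. All of these genes come from a list chosen for its change between the groups, and the samples share dogs and libraries, so the likeness is a description of these 10 libraries.

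**Figure D4:**
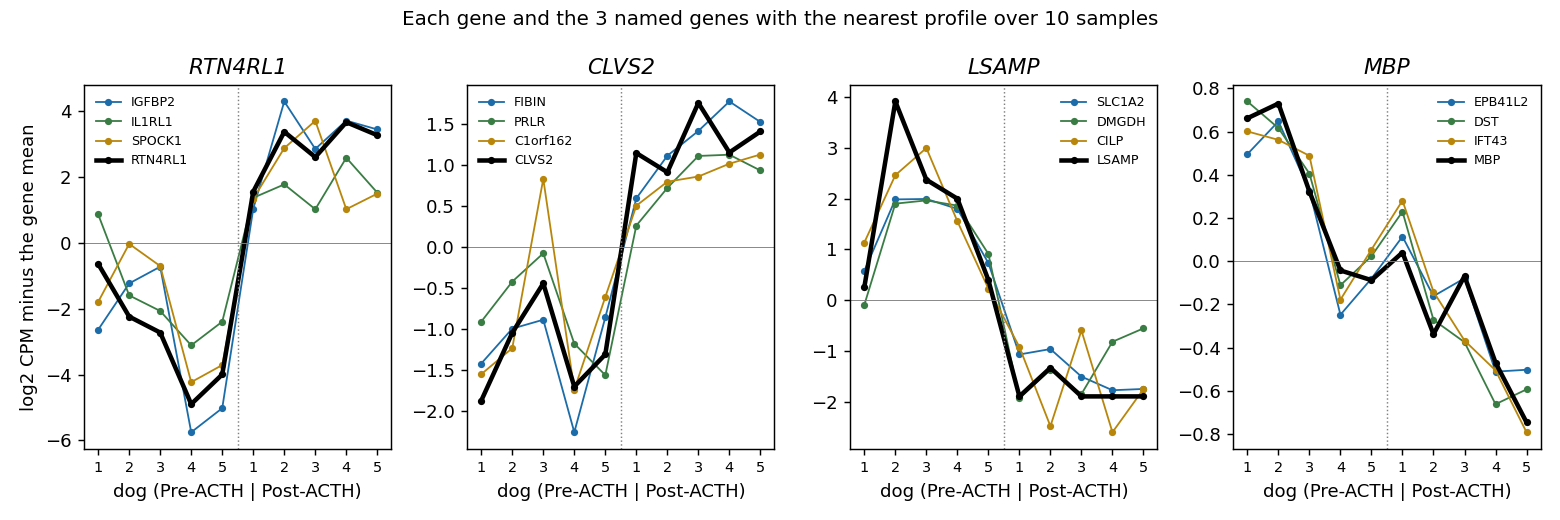
Log2 CPM minus the gene mean (vertical axes, a separate scale per gene) in the Pre-ACTH and Post-ACTH samples of dogs 1 to 5, with RTN4RL1, CLVS2, LSAMP and MBP in black and their 3 nearest named genes in color. Lines only join the points of a gene, and the curves of MBP, EPB41L2, DST and IFT43 lie within 0.13 to 0.17 log2 units (root mean square) of MBP, and those around RTN4RL1, which varied more, within 1.10 to 1.50.

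On the chromosome, the 3 protein-coding genes to each side of the 4 genes were taken from the RefSeq gene order of the assembly UU_Cfam_GSD_1.0, which is not the build of the counts. Only 4 of these 24 neighbors could be matched, and 0 of the 4 passed FDR under 0.01 in edgeR, with adjusted p-values from 0.0123 to 0.0469, while 4 of 4 had an unadjusted p under 0.05, as had 29% of all tested genes. The 4 were matched because the study lists them as changed, so this share was fixed by the matching. SMPDL3A, next to CLVS2, had 47.1 ± 27.7 and 95.2 ± 39.0 normalized counts (log2 fold change 1.09, adjusted p = 0.0343), and PKIB, the third gene on the same side, went the other way (-1.89, adjusted p = 0.0469). Near RTN4RL1, DPH1 had a log2 fold change of 0.53 and SERPINF1 one of -1.39. A non-coding RNA gene, LOC111097460, overlaps RTN4RL1 in that annotation, and whether the reads were counted by strand is not given in the sources used here.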

How the data were processed

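RNA-seq was performed on VAT of 5 dogs, sampled before and after treatment. After trimming, the authors mapped the reads to CanFam3.1 (STAR) and summed them over Ensembl genes (featureCounts). The deposited values are raw read counts, 1 table per sample, with no normalization. For software versions, strandedness of counting and treatment of multi-mapping reads, the setting is not given in the sources used here. The labels name a stranded library kit and the paper another kit.

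Samples were grouped by treatment status and paired by animal ID from the labels. Over genes, the deviations of a dog's 2 samples from their group means correlated at 0.0772 to 0.412 (mean 0.274). Between different dogs the correlation reached 0.206, above the lowest same-dog value, so the pairing was not borne out for every dog. Libraries differed by more than counting noise in each pair (chi-square per degree of freedom of at least 18.1). Counts were fitted in R 4.3.3 with edgeR 4.0.16 (TMM, glmQLFit and glmQLFTest) and a term for the dog, after genes below 10 reads in every sample had been removed. Adjustment was by Benjamini-Hochberg with FDR under 0.01, and SEs came from dividing the fold change by the root of F. Scripts were tested on simulated data. DESeq2 1.42.0, limma-voom (limma 3.58.1), other scalings and filters, fits without the block and fits without each dog were alternatives.

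Symbols were taken from the supplementary gene list of the study (1079 of 1190 genes have one), whose fold changes and p-values were not used. The 4 genes and all lists were chosen with earlier results of these data known. Genes named are the 4, the matched members of the lists, the 3 nearest profiles per gene and matched neighbors. Intervals and limits from read counts cover counting error only. Replicates are separate dogs.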

Additional observations from a re-analysis of the deposited data

Results flagged for a closer look

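Of 32 sets of 5 values, 4 held a sample far from the others. The sets were normalized counts of the 4 genes and of the 10 related genes in each group, and the log2 ratios of the 4 genes. For independent sets of normally distributed values the limit used would flag about 1 in 20. These sets share dogs and libraries and include low counts, so the 4 should not be weighed against that share. The Post-ACTH set of LSAMP was flagged by construction, since a single read among zeros is always far from the rest. LSAMP stood at 110 normalized counts in Pre-ACTH of dog 2, with 36.6 as the next highest value, and at 0.957 in Post-ACTH of the same dog, which is 1 read against 0 reads in the other dogs. TTPA had 1643 normalized counts in Pre-ACTH of dog 1, against 604 in the next dog, and RET had 114 in Pre-ACTH of dog 2, against 253 in the next lowest. The causes were not tested.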

How the results depend on the processing

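The log2 fold changes of RTN4RL1, CLVS2 and MBP kept their direction under all 13 alternatives, from 4.89 to 6.90, 2.46 to 2.73 and -0.70 to -0.53, and that of LSAMP under 12, from -7.33 to -5.47. The filter of 10 reads in 5 samples removed LSAMP. Values beyond the spread between dogs were LSAMP with limma-voom (-5.47) and its mean log2 ratio with a prior count of 0.5 (-5.24). Without a dog the fitted values were 4.89 to 6.90 for RTN4RL1, 2.46 to 2.73 for CLVS2, -7.33 to -6.74 for LSAMP and -0.70 to -0.53 for MBP. Over all genes 268 were called (102 higher, 166 lower). DESeq2 called 1174 (497 higher, 677 lower), the filter of 1 read 438 (172 and 266) and FDR under 0.05 1509 (657 and 852). Leaving out dogs 1 to 5 in turn gave 318, 1, 12, 117 and 23 calls (116, 1, 5, 36 and 6 higher, 202, 0, 7, 81 and 17 lower). The matched list genes come from the study's own DESeq2 calls, so their DESeq2 counts restate that choice. Of the neural lists together 1 gene was called, against 10 with DESeq2, 3 with the filter of 1 read, 8 at FDR under 0.05, and 0 to 1 when single dogs were left out. With DESeq2 the lists gave 1 (Nogo receptor), 1 (lipid carriers), 4 (adhesion), 1 (myelin), 1 (neuron) and 2 (neurotrophin) calls, at FDR under 0.05 they gave 1, 0, 3, 1, 1 and 2, and with the filter of 1 read adhesion gave 1 and neurotrophin 2. Without the replicate block adhesion gave 1 and neurotrophin 0 calls. Fibroblast markers gave 3 calls, against 6 with DESeq2, 5 with limma-voom, 5 with the filter of 1 read, 6 at FDR under 0.05 and 0 without dog 2 or 3. The sex-by-treatment test gave 0 calls, and 5 with DESeq2. The adjusted p of CLVS2 in that test ranged from 0.515 to 1. The cause of these shifts was not tested. Depth limits LSAMP and the Pre-ACTH values of RTN4RL1, which rest on few reads.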
